A study of Drosophila melanogaster with 2 samples.

Results

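The 50 genes described here encode subunits of the Mediator complex and of the general transcription factors of RNA polymerase II in Drosophila melanogaster. They were taken by name: every protein-coding gene whose symbol starts with MED, Taf, TfII or Tbp in the annotation, 50 of 13986 protein-coding genes. Of these, 25 are MED genes and 25 are Taf, TfII or Tbp genes. The rule uses no measured value.

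The data are chromatin immunoprecipitation followed by sequencing (ChIP-seq), in which DNA bound by a protein is recovered with an antibody and mapped as peaks along the genome. There was 1 group of 2 biological replicates: whole embryos of both sexes, collected 0 to 24 h after laying, from a fly line with an eGFP exon inserted into an intron of a gene by a MiMIC cassette. The labels call the tagged protein Side-eGFP, and it was recovered with an antibody to GFP from chromatin sonicated to 200 to 800 bp. No second condition was sampled. The strain and the fusion are named after side in the labels, while the source field says that the insertion targets Sidpn. Those are different genes, one for a membrane protein of axon guidance and the other for a repressor of the Hairy and E(spl) class, and the antibody field gives Side. The fusion is driven by the tagged gene's own regulation, and whole embryos mix all cell types. All lists used 1 common control. Both samples carried the tag, and no anti-GFP sample of untagged embryos was among them. A region that is enriched for another reason than the tagged protein therefore cannot be told apart from one that it binds.

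Mediator is a large complex that bridges factors bound at enhancers and RNA polymerase II at promoters. Its head and middle modules contact the polymerase, its tail contacts activators, and a kinase module binds reversibly. TFIID, made of TBP and its associated factors (TAFs), recognises core promoters, after which TFIIA, TFIIB, TFIIF and TFIIE help to load and start the polymerase. Most of these proteins are made in nearly all cells.

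The authors deposited a list of 30000 candidate peaks for replicate 1, for replicate 2 and for both pooled, and a list of 4097 peaks past their threshold in the irreproducible discovery rate (IDR) procedure, which weighs how alike replicates rank peaks. These 4097 are called thresholded here. They were the pooled candidates of highest signal, down to 81.5. The candidate lists hold peaks and background together, as input for IDR, so a candidate alone may be background. Signal is the authors' peak caller's value per peak, on a scale that is not given in the sources used here, and it was used only to rank and describe peaks. The depth behind each value is unknown, since no read totals were found in the files or labels used. The best promoter peak of a gene is the peak of highest signal whose summit lay within 500 bp of any annotated start site. Positions are on dm6, and a negative position lies upstream of the start site.

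Most of these genes had a candidate promoter peak, but their signals were ordinary. In the pooled list 45 of the 50 members (90%) had a candidate, against 55.5% of all protein-coding genes. Counted only for the nearest gene, a candidate was left at 34 of the 50 members, against 6698 of 13986 protein-coding genes. A thresholded promoter peak was present at 15 members (30%), against 19.5% of all protein-coding genes. When a peak counted only for its nearest gene, 8 members had one (16%), against 14.7% of all protein-coding genes. Among genes with a candidate the share was 15 of 45 for the members (33.3%) and 35.2% for all genes, so members with a candidate passed the threshold about as often as other genes did. The median pooled signal was 57.4 over the 45 members, with quartiles of 34.1 and 91.1, and 60.1 over the 7757 genes, with quartiles of 35.6 and 104. Over the thresholded peaks alone the medians were 125 for the 15 members and 130 for 2734 genes. The 15 thresholded members had 15 distinct peaks; the 45 members with a candidate had 44, since Taf10 and Taf10b share one.

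**Figure D1:**
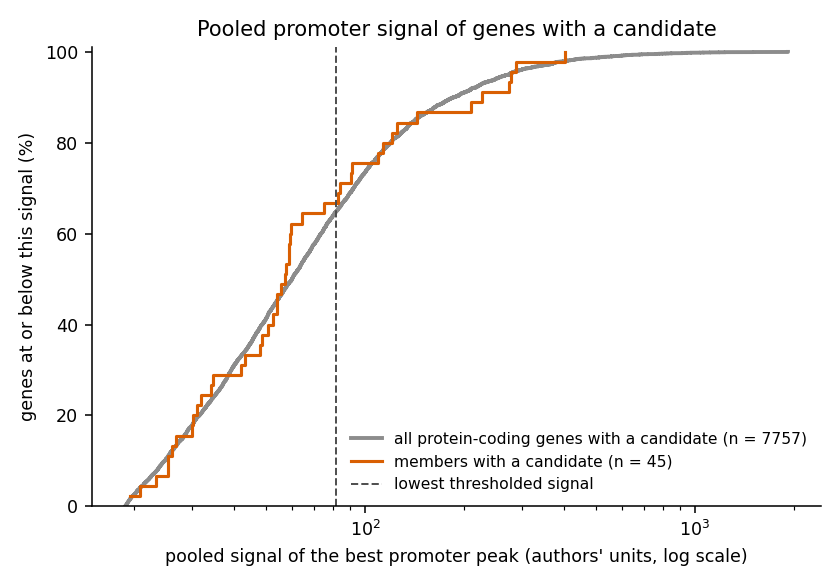
Share of genes (y axis, percent) whose best promoter peak had at most the pooled signal on the x axis (authors' units, log scale), for the 45 members with a candidate and for all 7757 protein-coding genes with one. The step curve of the members runs close to the curve of all genes, and the dashed line marks the lowest thresholded signal, 81.5.

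The strongest member peak lay at MED30, which encodes a Mediator head subunit that budding yeast lacks. Its signal was 213 in replicate 1, 199 in replicate 2 and 404 in the pooled list, with ranks of 208, 185 and 189. The peak (chr3L:654074-654434) had its summit in the gap between MED30 and Rev1, a gene for a DNA polymerase of damage bypass, and its summit was nearer to Rev1 (85 bp upstream) than to MED30 (189 bp upstream). At MED27, for a tail subunit, the signal was 137 in replicate 1, 141 in replicate 2 and 277 pooled (chr3R:5654829-5655152). That summit too lay between start sites, 176 bp upstream of MED27 and 102 bp upstream of elm. Taf4, for the TFIID subunit that forms a histone-fold pair with Taf12, had a signal of 136 in replicate 1, 143 in replicate 2 and 274 pooled (chr3L:16113516-16113807). The Taf4 peak was not shared: it lay in an intron of Taf4, 180 bp upstream of an internal start site. These 3 promoters and MED4 ranked at 560 or better in both replicates and differed little between them.

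TfIIA-S, for the small subunit of TFIIA, had a signal of 151 in replicate 1 but 58.2 in replicate 2, with 209 pooled (chr3R:23891046-23891200). Its ranks were 433 and 2172, the widest split between replicates among the thresholded members, a log2 ratio of 1.38. The summit lay 29 bp upstream of the start site, and the annotated INE-1 transposable element begins upstream of the stretch printed here. At the other end of the range, TfIIFbeta, for the small TFIIF subunit, had no candidate promoter peak in replicate 1, replicate 2 or the pooled list.

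The stretches upstream of these promoters are shown so that the places of the peaks can be read against their sequence. Each is taken from the RefSeq Release 6 genome (dm6), runs 5′ to 3′ on the gene's own strand, ends at the base before the start site and is cut where an annotated exon or element begins. The stretch of MED30 is chr3L:654090-654362 on the minus strand, the whole gap of 273 bases to Rev1. That of MED27 is chr3R:5654862-5655138 on the plus strand, the whole gap of 277 bases to elm. The Taf4 stretch is chr3L:16113490-16113789 on the plus strand, before the internal start site, that of TfIIA-S is chr3R:23891061-23891199 on the minus strand, and that of TfIIFbeta is chr3R:10767805-10768000 on the minus strand. Capitals mark matches on either strand to known promoter words. One is TATAAA, the TATA box. The site of the factor DREF is TATCGATA, called the DRE, and the insulator protein BEAF-32 binds sites with the core CGATA. The motif 1 core is GGTCACAC, and GAGA factor reads GAGAG. Repressors of the HES family and other basic helix-loop-helix proteins bind the E-box CACGTG, and the HES class C site is CACGCG. Other E-boxes and the N box of HES factors, counted over all promoters further on, are not marked here.
MED30: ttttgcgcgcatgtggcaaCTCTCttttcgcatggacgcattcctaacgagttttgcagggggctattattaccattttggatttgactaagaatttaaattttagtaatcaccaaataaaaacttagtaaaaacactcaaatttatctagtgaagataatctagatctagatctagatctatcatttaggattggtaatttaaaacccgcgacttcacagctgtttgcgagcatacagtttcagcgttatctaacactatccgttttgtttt
MED27: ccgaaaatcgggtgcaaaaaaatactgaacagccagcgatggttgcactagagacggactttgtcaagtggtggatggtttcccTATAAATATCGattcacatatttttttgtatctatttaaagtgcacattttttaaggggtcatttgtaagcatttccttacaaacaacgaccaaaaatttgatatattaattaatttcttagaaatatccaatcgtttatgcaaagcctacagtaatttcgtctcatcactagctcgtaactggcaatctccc
Taf4: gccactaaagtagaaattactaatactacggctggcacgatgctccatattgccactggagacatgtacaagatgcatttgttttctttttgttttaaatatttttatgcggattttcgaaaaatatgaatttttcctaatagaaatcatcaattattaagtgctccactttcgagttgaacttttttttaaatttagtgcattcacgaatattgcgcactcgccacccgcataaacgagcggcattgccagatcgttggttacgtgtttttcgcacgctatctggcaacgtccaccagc
TfIIA-S: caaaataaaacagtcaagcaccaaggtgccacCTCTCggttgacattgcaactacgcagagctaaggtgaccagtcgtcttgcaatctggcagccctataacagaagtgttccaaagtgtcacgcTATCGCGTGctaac
TfIIFbeta: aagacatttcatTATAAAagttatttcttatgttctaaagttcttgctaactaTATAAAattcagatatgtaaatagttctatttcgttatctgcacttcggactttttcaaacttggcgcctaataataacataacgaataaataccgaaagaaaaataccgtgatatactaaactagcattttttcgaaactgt
Among the marked words the MED30 stretch held 1 match, GAGAG read on the other strand, 254 bp upstream of the start site. In MED27 a TATAAA 193 bp upstream adjoined a CGATA read on the other strand, beside the summit at 176 bp upstream. The Taf4 stretch held none of the marked words. In TfIIA-S, CGATA and CACGCG, both read on the other strand, overlapped 14 and 11 bp upstream, close to the summit, and a GAGAG, also on the other strand, lay 107 bp upstream. TfIIFbeta, with no candidate, held TATAAA 184 and 143 bp upstream. A match describes these letters only; no site was tested.

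By group, the counts below are to be read against all protein-coding genes, of which 55.5% had a candidate and 19.5% a thresholded peak. The groups are small, and the counts are a description only. Counted only for the nearest gene, thresholded peaks were lost at MED30 and MED6 (head), MED31 (middle) and MED27 (tail). They were also lost at TfIIA-L, TfIIB and TfIIFalpha. Of the 10 Mediator head genes, 9 had a candidate and 3 a thresholded peak. Beside MED30 these were MED6 and MED17, for a conserved head subunit and for the scaffold of the module. MED6 had 134 in replicate 1, 92.4 in replicate 2 and 226 pooled, with its summit 24 bp upstream of an internal start site and 5 bp inside Naa80, an actin-modifying acetyltransferase gene. MED17 had 50.5 in replicate 1, 36.7 in replicate 2 and 83.9 pooled, just past the threshold, and its replicate summits lay 194 bp apart, the widest gap among thresholded members. A second pooled candidate of MED17, at -260 bp with a signal of 80.1, lay closer to the summit of replicate 1, so the replicates' best peaks there are different peaks. The median pooled signal of the head genes was 48.2 (9 genes). MED20, the remaining head gene, had a promoter peak only in replicate 2, with a signal of 11.4 at rank 24297, and Trf, the gene for a TBP relative, had the same value there.

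Of the 8 middle genes, 7 had a candidate and 3 a thresholded peak, with a median of 75.0. MED4 was the highest, with 144 in replicate 1, 131 in replicate 2 and 288 pooled (chr3L:7250634-7250737), 129 bp upstream of the start site. It was the 1 member with more than 1 thresholded peak in its window, the other having a signal of 102 at 330 bp upstream. MED7, whose product pairs with MED21 to form the hinge of the module, had 57.3 in replicate 1, 73.4 in replicate 2 and 125 pooled, in the gap to Cap-H2, a condensin gene. MED31 had 52.3, 37.7 and 91.1 in the same order. The MED31 summit also lay 80 bp upstream of slx1, an endonuclease subunit gene whose start site is at the same base on the same strand, so the peak cannot be given to either alone. MED21, the partner of MED7, had a peak of 24.8 in replicate 1 only.

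All 7 tail genes that the naming rule found had a candidate, with a median of 59.8, and 3 were thresholded. A tail gene under another symbol would not be among them. Beside MED27, MED16 had 76.2 in replicate 1, 65.3 in replicate 2 and 144 pooled. MED23, whose product binds the factor Elk1 in mammals, had 50.4 in replicate 1, 42.0 in replicate 2 and 90.8 pooled. MED23 was the 1 thresholded member with its summit downstream of the start site, at 83 bp, in its 5′ UTR. In the MED14 gene, for the backbone that joins the modules and counted here with the tail, the best peak reached only 34.1, with 13.6 and 21.4 in replicates 1 and 2. Over all 25 MED genes 23 had a candidate and 9 were thresholded, with a median of 55.8.

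All 15 TFIID genes had a candidate, and 2 of the 15 were thresholded, beside 19.5% of all protein-coding genes and 35.2% of those with a candidate. Beside Taf4, Taf7, for the subunit that inhibits the Taf1 acetyltransferase in human cells, had 62.2 in replicate 1, 55.7 in replicate 2 and 121 pooled. The Taf7 summit lay 114 bp upstream of an internal start site, in a peak shared with EMC1. The median over the 15 was 54.3, and 9 of the 15 shared their peak with another gene. Taf1, for the largest subunit, had 38.7 in replicate 1, 13.8 in replicate 2 and 48.8 pooled. Tbp, for the TATA-binding protein itself, had 21.1 in replicate 1, none in replicate 2 and 31.0 pooled, and that summit lay 242 bp downstream of the start site in the coding sequence. Taf3, for the subunit that reads histone H3 lysine methylation in mammals, had the lowest pooled value of all members, 19.4, close to the lowest value in the list, 18.8.

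Of the 7 genes for TFIIA, TFIIB, TFIIE and TFIIF, 6 had a candidate and 4 were thresholded, with a median of 96.2. With each peak counted only for its nearest gene, TfIIA-S alone of these stayed thresholded. TfIIA-L, for the large subunit of TFIIA, had 58.9 in replicate 1, 60.7 in replicate 2 and 113 pooled. The TfIIA-L summit lay in an intron, 210 bp upstream of an internal start site. It was nearer to the start of pll, the gene of the kinase Pelle (38 bp). TfIIB, which links TBP to the polymerase, had 60.4 in replicate 1, 43.7 in replicate 2 and 109 pooled. Its summit was 361 bp upstream of TfIIB but 59 bp upstream of Bug22, a gene of cilia, on the other strand. TfIIFalpha, for the large TFIIF subunit, had 39.1 in replicate 1, 43.2 in replicate 2 and 83.1 pooled, the lowest of the thresholded members, in the 5′ UTR of CG1024. The TFIIE genes were below the threshold, TfIIEalpha at 52.6 and TfIIEbeta at 43.4 pooled. TfIIS, an elongation factor that restarts stalled polymerase, reached 64.5 pooled with 49.0 in replicate 1 and 18.3 in replicate 2. The second copies Taf12L and TfIIA-S-2 had no candidate in any of the 3 lists.

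**Figure D2:**
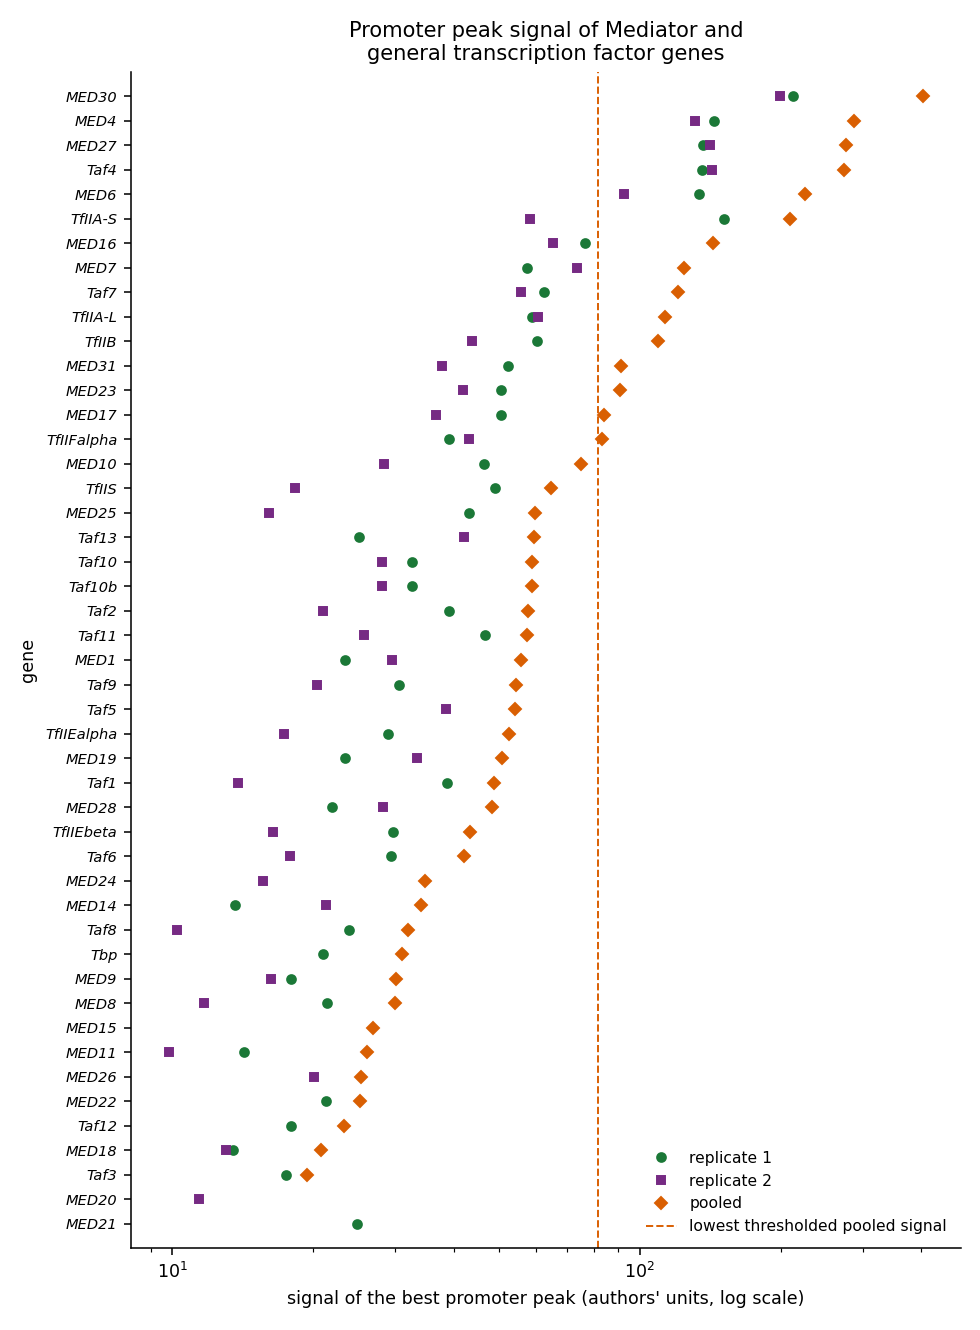
Signal of the best promoter peak (x axis, authors' units, log scale) of each member with a peak in any list, ordered by pooled signal: circles are replicate 1, squares replicate 2 and diamonds the pooled list. The 15 members right of the dashed line (81.5, the lowest thresholded pooled signal) run from TfIIFalpha at 83.1 to MED30 at 404, and missing points mean no peak in that list.

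The pooled signal was close to the sum of the replicate signals, with a median ratio of 0.975 over the 37 members with both, and at each of the 37 it was above either replicate. Just inside the threshold were TfIIFalpha (83.1) and MED17 (83.9). Nearest outside was MED10 (75.0), followed at more distance by TfIIS (64.5, pooled rank 5812). The 5 highest below the threshold were MED10, TfIIS, MED25 (59.8), Taf13 (59.4) and the peak of Taf10 and Taf10b (58.9). MED10 had 46.4 in replicate 1 and 28.4 in replicate 2, and its peak lay between its start site and that of PDCD-5. MED25 had 43.1 in replicate 1 and 16.1 in replicate 2, and its summit was 92 bp upstream of Hs6st, a heparan sulfate enzyme gene, and 343 bp upstream of MED25. Taf13 stood the other way, with 25.1 in replicate 1 and 42.1 in replicate 2.

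The replicates were compared by rank. Taking the 4097 highest peaks of each replicate, 17 members qualified in replicate 1 (19.7% of all protein-coding genes did) and 14 in replicate 2 (19.0% of all). Both replicates agreed on 12 members, against 14.7% of all protein-coding genes. Qualifying in 1 replicate only were 7 members: MED31, MED17, MED10, TfIIS and Taf11 in replicate 1, and TfIIFalpha and Taf13 in replicate 2. MED31, MED17 and TfIIFalpha were nonetheless thresholded, because the thresholded list follows the pooled ranking. Taf11 had 46.6 in replicate 1, 25.7 in replicate 2 and 57.4 pooled, with its replicate summits 270 bp apart. Across the 37 members with a peak in both replicates the signals had a Spearman rho of 0.80, and across the 6596 such genes 0.76. Pearson's r on the log2 scale was 0.85 for the members and 0.81 for all. Within the 15 thresholded members rho was 0.79, and within the 22 others it was 0.22; the split follows the pooled signal of the same replicates and leaves the 22 a narrow range, so the 2 values are a description only. These correlations run across genes of the same pair of libraries, called against the same control, and genes are not independent replicates. The log2 ratio of replicate 1 to replicate 2 had a median of 0.26 and an SD of 0.59 over the members, against 0.23 and 0.64 over all genes. Its SD was 0.41 over the thresholded members and 0.68 over the other 22, against 0.57 and 0.68 over all genes split in the same way.

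**Figure D3:**
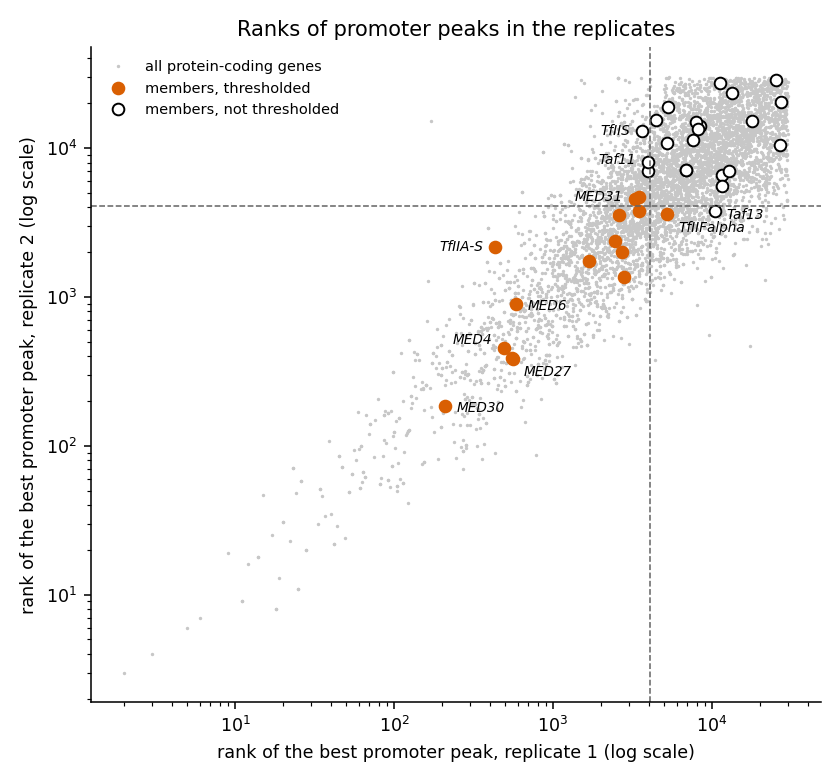
Rank of the best promoter peak in replicate 1 (x axis) and replicate 2 (y axis), both on log scales, for the 37 members with both and, in grey, all 6596 protein-coding genes with both. Dashed lines mark rank 4097. Thresholded members (filled) lie along the diagonal except TfIIA-S, at 433 and 2172, and members without a thresholded peak (open) scatter at the weak end.

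Where the summits lay differed between strong and weak member peaks. Among the 15 thresholded members 14 summits were upstream of the start site, with a median of -114 bp and quartiles of -179 and -32, and among 2734 thresholded genes 80.1% were upstream, with a median of -95.5 bp. Of the 30 members with a candidate below the threshold 16 summits were upstream, with a median of -16 bp, and of such genes overall 60.2% were upstream, with a median of -32 bp. By annotation, 9 thresholded member summits lay between genes, 3 in introns, at Taf4, Taf7 and TfIIA-L, and 3 in a 5′ UTR. Of the weaker 30, 12 lay between genes, 9 in a 5′ UTR, 1 in an intron and 8 in coding exons, among them those of Taf6 (409 bp downstream), Taf8 (426 bp) and MED15 (481 bp). No thresholded member summit lay in a coding exon. Replicate summits were a median of 29 bp apart at the thresholded members and 74 bp apart over all 37, against 33 bp and 59 bp over all genes.

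**Figure D4:**
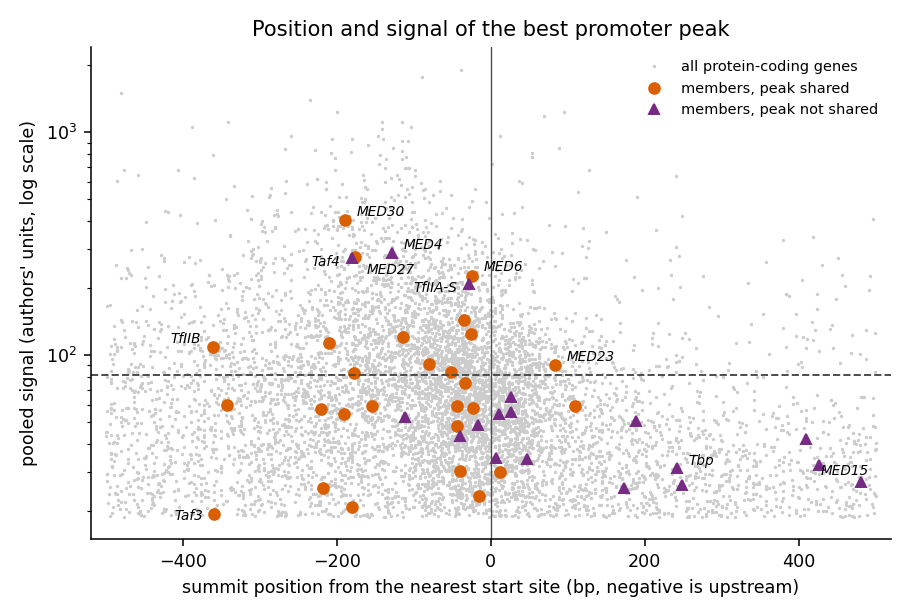
Distance of the best promoter summit from the nearest start site of the gene (x axis, bp, negative is upstream) and its pooled signal (y axis, authors' units, log scale), for members whose peak is shared with another gene (circles), members with an unshared peak (triangles) and all protein-coding genes (grey). Above the dashed line at 81.5, MED23 at 83 bp is the 1 member summit right of the start site.

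Many member promoters were shared with a neighbour. The best peak lay within 500 bp of the start site of another protein-coding gene at 27 of 45 members (60%), against 42.0% of genes with a candidate. These made 30 pairings of a member with a neighbour, 28 of them on opposite strands, in which Taf10 and Taf10b, each other's neighbour, count once from each side. In 12 pairings the summit was nearer to the member and in 16 nearer to the neighbour; for the thresholded pairings the counts were 5 and 7. At MED16, MED7, Taf7, MED23 and MED17 the summit was nearer to the member. Those of MED30, MED27, MED6, TfIIA-L, TfIIB and TfIIFalpha were nearer to the other gene, as was that of MED31, relative to CG9775. Which gene of a pair the protein acts on cannot be read from a peak. Of shared member peaks 12 of 27 were thresholded (44.4%, all genes 45.3%), and of unshared ones 3 of 18, at MED4, Taf4 and TfIIA-S (16.7%, all genes 28.0%).

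A divergent neighbour, on the other strand with its outermost start within 1000 bp upstream, was present at 34 of the 50 members (68%) and at 33.3% of all protein-coding genes. Of the members with such a neighbour 11 had a thresholded promoter peak (32.4%), against 32.6% of all genes so arranged. Of the 16 members without one, 4 did (25%), MED4, MED6, TfIIA-S and Taf7, against 13.0% of all genes without one. MED6 and Taf7 share their peaks with genes that face an internal start site. Among the 11, the peaks of Taf4 and TfIIA-L lay at internal start sites. Their divergent neighbours, Zn72D and TTLL6B, were counted from the outermost start. The excess of thresholded peaks over all genes, 30% against 19.5%, thus stood beside an excess of divergent promoters. Its part in the count was not tested.

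**Figure D5:**
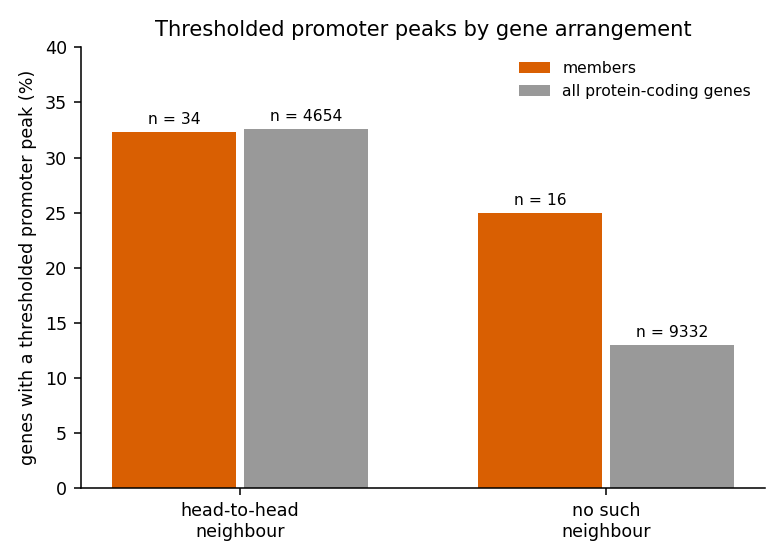
Percent of genes with a thresholded promoter peak (y axis, from 0) among genes with and without a divergent neighbour within 1000 bp, for members and all protein-coding genes, with the number of genes over each bar. With a neighbour the bars are 32.4% and 32.6%, and without one they are 25% (4 of 16 members) and 13.0%.

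Promoter words were searched on both strands from 250 bases before to 50 bases from the start site, using the start site nearest the best summit where there was one. TATCGATA was found at 11 of 50 members (22%) and at 9.08% of 13968 promoters, and GGTCACAC at 11 members (22%) and 7.55%. Within 100 bp of the best summit, however, TATCGATA was at 8.89% of 45 members and 8.43% of 7757 genes, and GGTCACAC at 11.1% and 6.47%. TATAAA stood at 20 members (40%) and 45.0% of promoters, GAGAG at 9 (18%) and 30.8%, and CGATA, which TATCGATA contains, at 28 (56%) and 47.1%. CANNTG was at 37 members (74%) against 77.6%, CACGTG, which CANNTG contains, at 2 (4%) against 4.16%, CACGCG at 4 (8%) against 6.59%, and CACNAG (the N box of HES factors) at 19 (38%) against 29.8%. Within 100 bp of the best summit CGATA was at 33.3% of the 45 members and 40.6% of the 7757 genes, and CACNAG at 26.7% and 26.3%. The widest gaps between members with and without a thresholded peak were in the TATA box, the motif 1 core and the N box. TATAAA was at 2 of 15 thresholded members and 18 of the other 35, and among other genes at 41.2% of those with a thresholded peak and 46.0% of those without. Within 100 bp of the best summit it was at 2 of 15 and 6 of 30 members, and among other genes the order turned, with 27.4% of those with a thresholded peak and 21.8% of those without. GGTCACAC was at 1 of 15, MED23, and 10 of 35, and among other genes at 10.5% of those with a thresholded peak and 6.77% of those without. CACNAG was at 9 of 15, MED30, MED4, MED27 and Taf4 among them, and 10 of 35, while among other genes it was at 32.5% and 29.1%. Within 100 bp of the best summit CACNAG was at 4 of 15 thresholded members and 8 of the 30 below the threshold, nearly the same share. TATCGATA was at 3 of 15, MED7, MED17 and Taf7, and 8 of 35.

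Genes of the same machinery under other names held more high values than the members. Of 62 such genes 53 had a candidate and 27 were thresholded, with a median of 89.6 over those with a candidate. For all protein-coding genes the thresholded share was 19.5%, or 35.2% of those with a candidate, and each count below is to be read against these. Many of the thresholded peaks were shared with another gene, such as those of Bdp1 (CG6565), Brf (sds22), Gcn5 (ver) and Polr2H (CG11247). Others, such as those of Polr2F, Ada2b and Trf2, were not. No count by nearest gene is given for these lists, so a shared value cannot be credited to the listed gene alone. In the Mediator kinase module 1 of 4 was thresholded, skd (MED13), with 96.8 in replicate 1, 36.2 in replicate 2 (rank 4842) and 136 pooled. The skd summit lay 490 bp upstream, near the edge of the window, in a peak shared with Pdss2. Cdk8, the kinase of the module, reached 79.3, kto (MED12) 44.7 and CycC, the cyclin, 22.4. Of the RNA polymerase II subunit genes 5 of 12 were thresholded: Polr2H (334), Polr2F (272), Polr2B, the second largest subunit (164), Polr2C (99.5) and Polr2E (94.0), while Polr2A, the largest, reached 64.2. Of 10 TFIIH genes, for the helicase and kinase complex that opens the promoter, 4 were thresholded. Ssl1 had 714 in replicate 1, 521 in replicate 2 and 1234 pooled at rank 9, in a promoter shared with Chro, and Tfb4 (147), Cdk7 (129) and CycH (124) followed.

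SAGA shares several TAFs with TFIID and acetylates histones at promoters. The 16 genes listed with it include nej, the gene of a separate coactivator acetyltransferase. The median was 97.8 over the 13 with a candidate, and 8 of the 16, nej among them, were thresholded. Those thresholded were Gcn5, the acetyltransferase (201), Ada3 (161), Ada2b (161), nej (140), Sgf29 (125), Spt3 (117), wda (97.8) and e(y)2 (94.0). Among relatives of Tbp and its RNA polymerase III partners, Bdp1 had 560 pooled and Brf 371, both in shared promoters. Trf2 had 125 in an unshared peak, and Tbp itself had 31.0. Trf had no pooled candidate. NC2alpha, part of a repressor pair that binds TBP, had 375 in a promoter shared with several genes, and its partner NC2beta 34.9. Among 9 pausing and elongation genes 5 were thresholded, Nelf-E (526, shared with RpL14), Spt6 (137), Nelf-A (133), spt4 (92.6) and CycT (89.6), and Spt5 had no candidate. The testis TAF genes nht, can and sa had no candidate, like Taf12L, which belongs to the same testis set, and mia had 54.7.

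Thresholded members were not spread evenly over the chromosomes. On 3R 9 of 14 members had a thresholded promoter peak, against 21.5% of all genes there. On 3L it was 3 of 14 (20.1%), on 2R 2 of 6 (19.7%), on 2L 1 of 9 (18.4%), on X 0 of 5 (17.7%) and on chromosome 4 0 of 2 (8.75%). The X members were Taf9 (54.3), Taf8 (32.0), MED22 (25.2), MED18 (20.8) and TfIIA-S-2, and those of chromosome 4 were MED26 (25.4) and Taf3 (19.4). With so few genes per arm these counts are a description only.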

How the data were processed

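ChIP-seq peak lists on dm6 from 2 biological replicates of 1 group were used. Per the labels and the deposited file records, candidate lists (peaks and background as input for IDR) were made for each replicate and for their pool against 1 shared control, and an optimal list passed the IDR threshold. The signal in column 7 of the deposited lists is the authors' value per peak, on a scale not given in the sources used here. The summit offset in column 10, counted in bp from the peak's start, is also the authors' and is the other deposited value used. For the aligner, the peak caller and the IDR threshold: not given in the sources used here. Depth is unknown, as no read totals were found in the files or labels used. Lists on dm3 were not used, and no coordinate was converted.

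Start sites of all transcripts of 13986 protein-coding genes came from Ensembl release 115 (annotation 6.54, genome Release 6, the same as dm6), and sequences from the RefSeq copy of Release 6. A peak counted for every gene with a start site within 500 bp of its summit. Assignment was tested on simulated data. With 1 group no comparison between conditions was made, and no p-value was computed, so p-values play no part. Members, pathway lists, motifs and the naming rule were chosen with earlier results of these data known. Genes named were all thresholded members, the top of each role, members ranked high in 1 replicate only and members without a candidate. Also named were the 5 highest below the threshold, some of the neighbours sharing a named peak, and thresholded or highest pathway genes. Named after their values were seen were the TFIIE genes, Taf1, Taf3, Taf6, Taf8, Taf9 and Tbp. So were MED14, MED15, MED18, MED20, MED21, MED22 and MED26. Of the pathway genes, Cdk8, kto, CycC, Polr2A, NC2beta, Trf, Spt5, nht, can and sa were named so too. The same holds for Zn72D, TTLL6B and, in the last part, genes near MED15, MED28, MED14, Taf13 and Taf11. Of the pathway symbols 1 matched no gene, and 3 that were members were left out. Python 3.11.15, pandas 2.3.3, numpy 2.4.6 and scipy 1.17.1 were used.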

Additional observations from a re-analysis of the deposited data

How the results depend on the processing

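The alternatives were promoter windows of 200 and 1000 bp, the outermost start site only, the nearest gene only, the 1000 highest pooled peaks, each replicate's list alone, and any overlap with the window. The number of members with a candidate, 45, was between 34 and 46 in all of them, lowest with the nearest gene only. Over all 13986 protein-coding genes this number, 7757 in the main setting, ran from 6050 to 8724 and was 6698 with the nearest gene only. The number thresholded, 15, was 8 when a peak counted only for the nearest gene, which lost MED30, MED27, MED6, TfIIA-L, TfIIB, MED31 and TfIIFalpha, against 14.7% of all protein-coding genes. It was 6 among the 1000 highest pooled peaks, against 5.51% of all protein-coding genes, and between 13 and 17 in the others. With the 200 bp window it was 13 (all genes 15%), with TfIIA-L and TfIIB lost. With the outermost start site only it was 13 (all genes 17.5%), with MED6 and TfIIA-L lost. Without replicate 1 it was 14 (all genes 19%) and without replicate 2 it was 17 (all genes 19.7%). The median signal, 57.4, was 49.8 with the nearest gene only (all genes 53.7). It was 28.3 without replicate 1 and 35.6 without replicate 2, where all genes gave 29.4 and 33.8; the pooled signal of members was close to the sum of both replicates. Shared best peaks, 27, became 17 with the 200 bp window and 2 with the nearest gene only, where sharing is possible only in ties; the other settings gave 25 to 34. No paired analysis was possible because there is 1 group. Unknown depth and 2 replicates limit what can be said of the weaker peaks.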

Other observations

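Strong peaks also lay near members whose own promoter windows held weak ones or none. MED15, for a tail subunit, had only a pooled candidate of 26.8 in its coding sequence and no promoter peak in either replicate. A thresholded peak of signal 360 (rank 266) lay 559 bp upstream of its start site, at the promoter of CG4297, so MED15 was thresholded with the 1000 bp window. Downstream of MED15, 8040 bp from its start, was the peak of highest signal in the whole list, 2300 at rank 1, in an intron of ush, the gene of a GATA factor partner, and 7061 bp away was another of 626 (rank 67), at the promoter of cbt.

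A peak of 588 (rank 80) lay 3752 bp upstream of MED28, at the promoters of Fur1 and Vps33B, whereas MED28 itself had 48.2. A peak of 346 at the promoter of Kah lay 3794 bp upstream of MED14, against 34.1 for MED14. Peaks of 309 lay 2494 bp downstream of the start of Taf13, and of 300 lay 4865 bp downstream of the start of Taf11, at zf30C. The thresholded summit nearest to a member without a thresholded promoter peak was a median of 5079 bp away over 35 members, against 11637 bp over all genes without one. The farthest was that of MED21, at 2020376 bp.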
